A study of Populus ussuriensis with 8 samples.

Results

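The 100 most abundant transcribed genes at the cut base of poplar stem cuttings are described here, with the question of which of them gained or lost share of the RNA signal between 0.5 h and 1 h after cutting. A gene's level is the sum of its transcripts in FPKM, a unit of sequenced fragments corrected for transcript length and for the size of the library. The unit was inferred from the values, because the labels do not name it. The 100 genes with the highest mean level over 8 libraries were taken, after genes whose mean log2(FPKM + 1) differed by 2 or more between the times had been left out. They are 100 of 36385 genes listed, and of 24347 genes that reached at least 1 FPKM in at least 2 libraries and were tested. All 100 were among the genes tested. The members were thus chosen by their mean level over all libraries and by their time difference, so their levels and time differences are given as description, without a test.

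RNA came from the basal 0.5 cm of stem cuttings of Populus ussuriensis, taken from plants grown in vitro and placed on diluted Murashige and Skoog medium with sucrose. The 4 groups, with 2 libraries each, were untreated cuttings at 0.5 h and 1 h after cutting and cuttings on medium with 1 µM methyl jasmonate (MeJA) at the same times. The submitters' labels give conflicting ages for the source plants and do not say whether the replicates are separate cultures. P-values therefore speak of the variation among these 8 libraries alone, and that variation may be technical. All groups had been cut, and no uncut tissue was analysed here.

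A cut severs the stem from its roots and wounds it, and in poplars adventitious roots later form at the base of such cuttings. Jasmonates are hormones that plants make on wounding, and MeJA is the methyl ester of jasmonic acid. In most plant tissues a small number of genes supplies a large part of the messenger RNA. Values such as FPKM are relative, so that when some genes take a larger share of a library the others must together take a smaller one. In a piece of tissue, fewer cells of a type and less RNA per cell cannot be told apart.

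Genes are named by the Potri identifiers in the deposited tables, whose first digits give the chromosome. No table naming these identifiers was used here, so no function is given to any gene, and the labelled tissue was not checked against marker genes. Libraries were close in relative depth, at 0.937 to 0.997 times that of the first one, and listed sums ran from 549538 to 577002 FPKM. The list used here holds 65535 transcripts and ends within chromosome 17. Genes beyond that point were not analysed here, so shares are of the listed signal, and positions and membership hold among the listed genes.

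The members held 15.9% ± 1.04 of the listed signal at 0.5 h and 17.3% ± 0.798 at 1 h (SD, n = 4 libraries per time). The values ran from 14.5% to 16.8% at 0.5 h and from 16.4% to 18.3% at 1 h, so the times overlapped. The 100 genes are 0.275% of the genes listed. Each SD covers untreated and MeJA libraries together, so it mixes treatment with the spread of replicates. The difference between the times was 1.32 percentage points and was not tested. It was 1.93 points in untreated cuttings, from 15.2% to 17.1%, and 0.710 points with MeJA, from 16.7% to 17.4%. Without the 5 members that varied most between replicates, it was 1.73 points in untreated cuttings and 0.174 points with MeJA. The size of the change depended on the scaling. The relative change was 8.27% in share of the listed signal, 7.18% in summed FPKM and -0.384% after quantile normalization. Quantile normalization gives every library the same distribution of values. It therefore leaves little room for the sum of the most abundant genes to change, and cannot decide the direction of this change. Choosing the 100 genes by their mean at 0.5 h alone gave a relative change of -0.057%, and choosing them by their mean at 1 h gave 15.3%. Each of these choices favours genes that are high at the time used, so the choice itself moves the change down or up. Without untreated 0.5 h replicate 1, the library with the lowest share, the relative change of the 100 members was 5.08%.

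**Figure D1:**
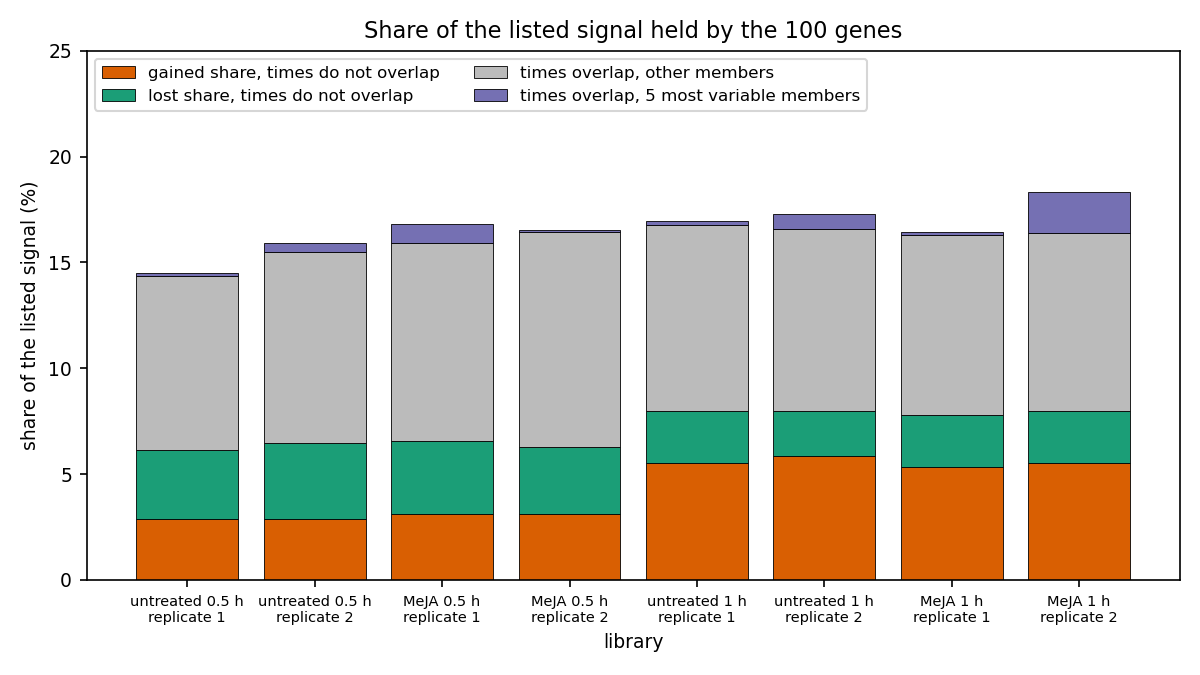
Share of the listed FPKM, in percent, held in each of the 8 libraries by the 100 members, stacked as members that gained share, members that lost share, the other members whose times overlapped and the 5 members that varied most between replicates. The gaining members held 2.86% to 3.11% in the libraries of 0.5 h and 5.33% to 5.84% in those of 1 h.

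Within the list the movement was larger than its sum. Between the times, 33 members gained share with every library of 1 h above every library of 0.5 h, 17 lost share in the same strict sense, and for 50 the times overlapped. Of all genes tested, 18.2% gained and 36.1% lost by this criterion. The time difference helped to choose the members, so nothing is read from these counts against the background. After quantile normalization 25 members were higher and 37 were lower at 1 h without overlap, so the balance of gains and losses differed under that scaling. It leaves little room for the members' sum to change, and the share of all genes under it is not given here. Together the 33 gaining members moved from 2.99% ± 0.133 to 5.55% ± 0.212 of the signal (SD, n = 4), a gain of 2.56 points. The 17 losing members moved from 3.38% ± 0.187 to 2.39% ± 0.172, a loss of 0.989 points. The remaining 50 held 9.57% ± 0.899 and 9.32% ± 0.734. Gains were 2.81 points in untreated cuttings and 2.32 points with MeJA, and losses were 1.14 and 0.840 points.

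The gaining members rose by a median of 1.61-fold in share, from 1.15-fold to 3.22-fold, and 10 of the 33 rose at least 2-fold. Among the losing members the ratio of 1 h to 0.5 h had a median of 0.720 and ran from 0.496 to 0.860, with 1 member falling at least 2-fold. Of the gaining members, 14 were among the 50 most abundant and 19 among the other 50, and of the losing members 11 and 6. The 10 most abundant genes together went from 5.63% ± 0.584 to 5.14% ± 0.0659. Those at positions 11 to 50 went from 6.29% ± 0.402 to 7.51% ± 0.642, and those at positions 51 to 100 from 4.03% ± 0.274 to 4.60% ± 0.160.

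**Figure D2:**
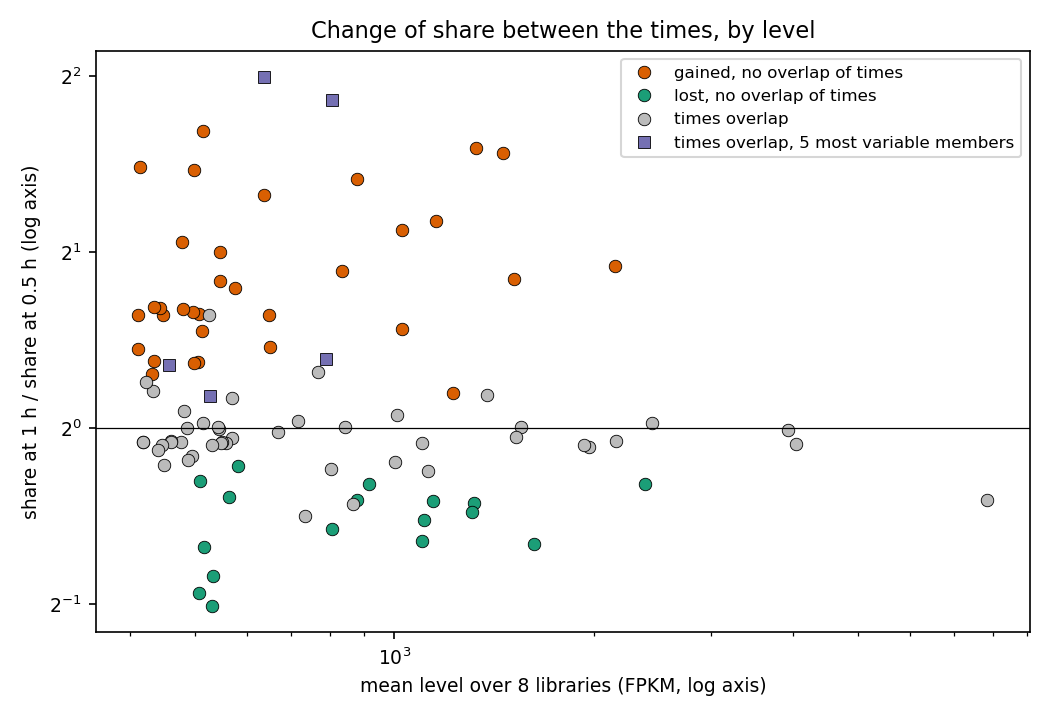
Ratio of the mean share at 1 h to that at 0.5 h (log axis) for each of the 100 members against its mean level in FPKM (log axis), marked by whether the 4 libraries of each time overlapped. Gaining members reach 3.22 and losing members 0.496. The 2 highest ratios, 3.98 and 3.64, belong to members whose libraries overlapped between the times.

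The list was headed by Potri.009G030800, on chromosome 9, in all 8 libraries. Its level in untreated cuttings was 6962 and 8017 FPKM at 0.5 h and 7147 and 6530 FPKM at 1 h, and with MeJA it was 9418 and 11556 FPKM, then 6532 and 6596 FPKM. The MeJA libraries of 0.5 h stood above the other 6, and the rest lay within 6530 to 8017 FPKM. Its share went from 1.58% ± 0.331 at 0.5 h to 1.19% ± 0.0583 at 1 h (SD, n = 4), which was the largest loss in points of any member, 0.388, although the times overlapped. In untreated cuttings alone it went from 1.33% to 1.22%, and with MeJA from 1.83% to 1.16%.

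Next in the order came Potri.001G400100 and Potri.010G013400, which held positions 2 and 3 between them in all 8 libraries. Potri.001G400100 stood at 3354 and 3703 FPKM untreated and 3963 and 5738 FPKM with MeJA at 0.5 h, and at 3845 and 4249 FPKM untreated and 3657 and 3836 FPKM with MeJA at 1 h. Potri.010G013400 stood at 3498 and 4204 FPKM untreated and 3995 and 4150 FPKM with MeJA at 0.5 h, and at 3919 and 4045 FPKM untreated and 3719 and 3890 FPKM with MeJA at 1 h. Both overlapped between the times, with ratios of 0.940 and 0.993 in share. Potri.010G142600, Potri.010G111000, Potri.011G118900 and Potri.001G239700 also overlapped between the times, with share ratios of 1.02, 0.951, 0.928 and 0.937.

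Neighbours in this order were rarely distinct. Of the 99 pairs of neighbours, 2 had ranges over the 8 libraries that did not overlap, the pairs after position 1 and after position 3. The median of the members' mean levels was 570 FPKM, and 29 members had a mean of at least 1000 FPKM. In each library 76 to 84 members were among that library's own 100 most abundant genes, and 53 were so in all 8. At the lower end, Potri.017G036800 and Potri.016G131300 were just inside with means of 411 FPKM, and Potri.010G150800 and Potri.009G066100 just outside with 409 and 408 FPKM.

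**Figure D3:**
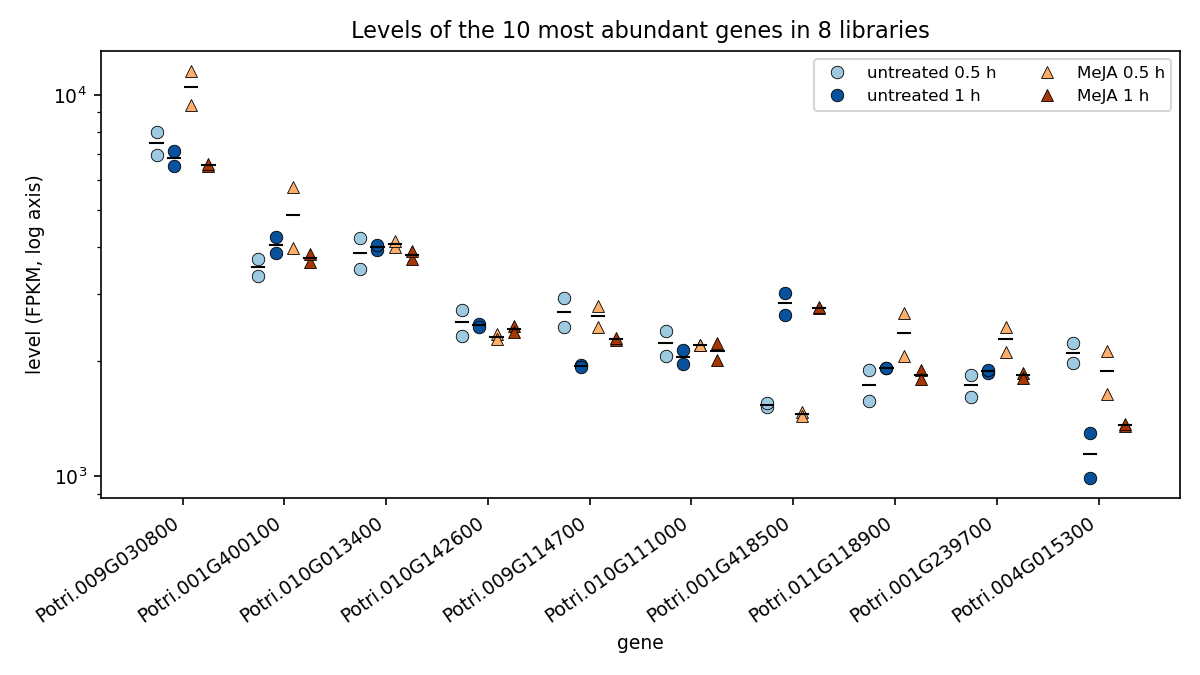
Level in FPKM of the 10 members with the highest means, with 1 point per library, coloured by group, and a short bar at the mean of each group of 2. Potri.009G030800 lies above the other 9 in every library, and Potri.001G418500 is higher in the 4 libraries of 1 h.

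Of the 10 most abundant genes, 1 gained share and 2 lost share without overlap. The gaining one was Potri.001G418500, at 1517 and 1555 FPKM untreated and 1473 and 1441 FPKM with MeJA at 0.5 h, and at 2654 and 3025 FPKM untreated and 2759 and 2777 FPKM with MeJA at 1 h. All libraries of 1 h lay far above those of 0.5 h, and the treatments lay close together. Its share went from 0.263% to 0.498%, and its position from between 10 and 17 to between 4 and 5.

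The losing ones were Potri.009G114700 and Potri.004G015300. Potri.004G015300 stood at 1979 and 2240 FPKM untreated and 2134 and 1646 FPKM with MeJA at 0.5 h, and at 1299 and 989 FPKM untreated and 1354 and 1372 FPKM with MeJA at 1 h. The lowest library of 0.5 h was above the highest of 1 h, and the share went from 0.352% to 0.223%, the second largest loss in points. Potri.009G114700 stood at 2463 and 2935 FPKM untreated and 2798 and 2468 FPKM with MeJA at 0.5 h. At 1 h it stood at 1960 and 1938 FPKM untreated and 2279 and 2302 FPKM with MeJA, again below every library of 0.5 h. Its neighbour by identifier, Potri.009G114800, is a member as well and moved the same way, from 1518 ± 179 FPKM at 0.5 h to 1117 ± 139 FPKM at 1 h (SD, n = 4).

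The largest gains in points were those of Potri.004G102500 and Potri.008G054700. Potri.004G102500 stood at 637 and 730 FPKM untreated and 853 and 756 FPKM with MeJA at 0.5 h, and at 2018 and 2326 FPKM untreated and 2103 and 2259 FPKM with MeJA at 1 h. Potri.008G054700 stood at 601 and 596 FPKM untreated and 693 and 780 FPKM with MeJA at 0.5 h, and at 1958 and 2167 FPKM untreated and 1879 and 1952 FPKM with MeJA at 1 h. In both genes the libraries of 1 h lay far above those of 0.5 h, and the treatments lay close together by comparison. Their shares rose 2.96-fold and 3.01-fold, and their positions went from 35 to 39 and 33 to 50 at 0.5 h to 6 to 9 and 7 to 13 at 1 h. Potri.003G165000, chosen after its values were seen, had the largest rise in share by ratio without overlap, 3.22-fold. Its level went from 246 ± 45.1 to 783 ± 61.9 FPKM (SD, n = 4), a ratio of 3.19.

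By ratio the largest falls were those of Potri.003G128600 and Potri.003G111400, both on chromosome 3. Potri.003G128600 stood at 653 and 742 FPKM untreated and 750 and 699 FPKM with MeJA at 0.5 h, and at 366 and 310 FPKM untreated and 358 and 364 FPKM with MeJA at 1 h. Potri.003G111400 stood at 660 and 718 FPKM untreated and 658 and 644 FPKM with MeJA at 0.5 h, and at 370 and 279 FPKM untreated and 359 and 376 FPKM with MeJA at 1 h. The 2 genes had nearly the same levels in each group, and both stood among the 50 most abundant genes of every library at 0.5 h. At 1 h they held positions 144 to 195 and 143 to 218.

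The time limit of 2 on the log2 scale left out 2 genes that would otherwise belong to the list. Potri.002G249200 stood at 228 and 242 FPKM untreated and 293 and 274 FPKM with MeJA at 0.5 h, and at 1071 and 1268 FPKM untreated and 956 and 1027 FPKM with MeJA at 1 h. Potri.001G286700 stood at 182 and 192 FPKM untreated and 208 and 227 FPKM with MeJA at 0.5 h, and at 946 and 955 FPKM untreated and 784 and 892 FPKM with MeJA at 1 h. Both rose, by 2.05 and 2.14 on the log2(FPKM + 1) scale, so the limit removed genes that gained share and none that lost it. The largest time difference of a member was 1.68 and the lowest was -1.02.

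Another kind of variation concerned 5 members, chosen after their values were seen, that differed between replicates rather than between groups. Their SD between replicates was 1.63 to 2.24 on the log2(FPKM + 1) scale. The other 95 members reached at most 0.41, and the median over the members was 0.11. Positions went down to 1585 among these 5 and to 441 among the other 95. Membership of such genes can rest on 1 high library, since the mean over 8 libraries chose the members. Potri.005G132300, with a mean of 635 FPKM, ran from 109 FPKM to 2770 FPKM in MeJA 1 h replicate 2. All 5 genes are listed with 1 transcript each. Among the 934 genes tested with a mean of at least 100 FPKM, 7 had a replicate SD over 1, and these 5 are among them.

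The 5 genes formed 2 sets whose members varied largely together over the libraries. Potri.013G139900 stood at 171 and 541 FPKM untreated and 1936 and 104 FPKM with MeJA at 0.5 h, and at 217 and 994 FPKM untreated and 154 and 2203 FPKM with MeJA at 1 h. Replicates of 1 group thus differed by up to 18.5-fold, with replicate 1 the higher one for MeJA at 0.5 h and replicate 2 the higher one in the other 3 groups. Its ratio to Potri.011G074100 remained between 1.56 and 1.79 over the 8 libraries, while Potri.011G074100 itself ran from 66.8 to 1253 FPKM. The ratio of Potri.013G139900 to Potri.013G140100, which lies 2 identifiers away, ran from 1.26 to 2.05.

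The second set was Potri.005G133100 and Potri.005G132300. Potri.005G133100 stood at 141 and 748 FPKM untreated and 331 and 185 FPKM with MeJA at 0.5 h, and at 373 and 942 FPKM untreated and 279 and 3448 FPKM with MeJA at 1 h. Its ratio to Potri.005G132300 remained between 1.21 and 1.39 over the 8 libraries. The sets were not alike in every library. MeJA 0.5 h replicate 1 was among the highest for the first set, at 1936 FPKM for Potri.013G139900, and not for the second, at 331 FPKM for Potri.005G133100. In MeJA 1 h replicate 2 both were at their highest except Potri.013G140100, which was higher in MeJA 0.5 h replicate 1.

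Together the 5 genes held between 0.101% and 0.901% of the signal in libraries of 0.5 h and between 0.147% and 1.93% in those of 1 h. The highest value was that of MeJA 1 h replicate 2, and all 4 groups differed between their replicates. Without these 5 genes the members' share was 15.6% ± 0.881 at 0.5 h and 16.5% ± 0.198 at 1 h (SD, n = 4), and the SD at 1 h was smaller than the 0.798 of the full list.

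**Figure D4:**
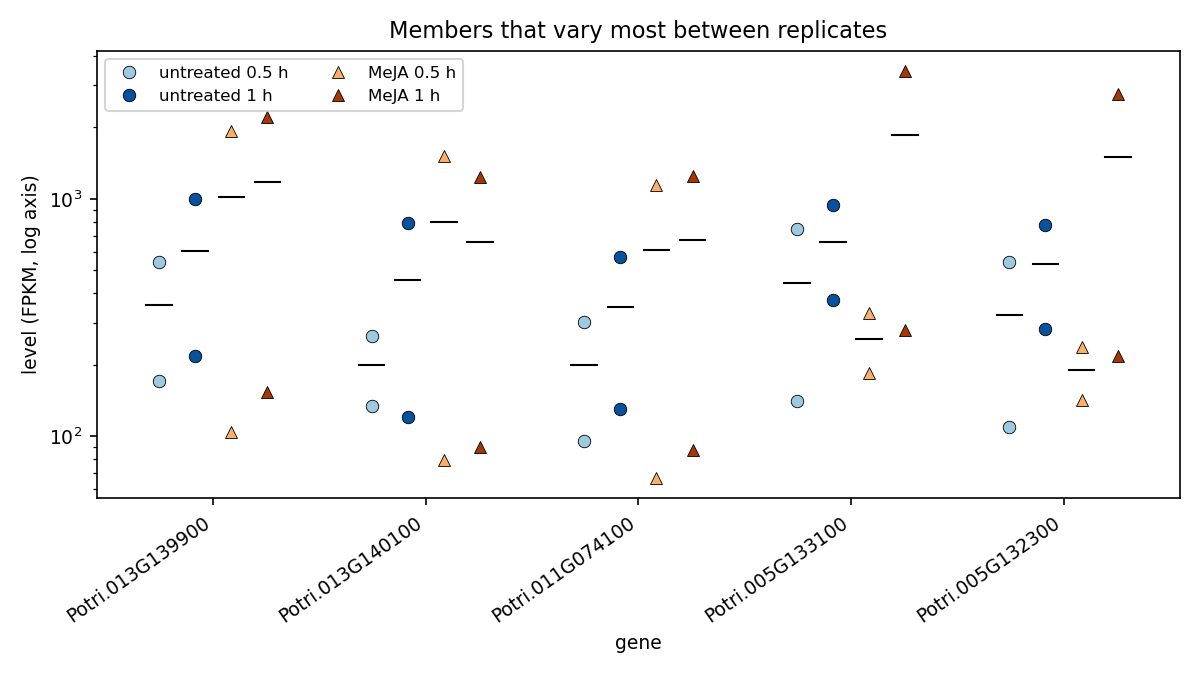
Level in FPKM (log axis) of the 5 members that differed most between replicates, with 1 point per library, coloured by group, and a short bar at the mean of each group of 2. The 2 points of a group lie far apart in most groups, and the upper MeJA 1 h point, which is replicate 2, is among the highest for all 5 genes.

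The question put by the MeJA libraries was whether the hormone altered the levels of these genes. This contrast did not choose the members and could be tested. At an adjusted p under 0.05 in limma (Benjamini-Hochberg over all 24347 genes), 0 members and 0.0% of all genes differed at 0.5 h, at 1 h, over both times or in the difference between times (the interaction). At an unadjusted limma p under 0.05 the members numbered 20 at 0.5 h, where 7.8% of all genes were so, and 0 at 1 h, where 5.93% were. The interaction had 19 members against 9.32% of all genes, and the effect over both times 0 members against 3.66%. Of the 20 members at 0.5 h, 19 were higher with MeJA and 1 was lower, against 3.46% and 4.34% of all genes. The members varied less between replicates than all genes tested, with median SDs of 0.11 and 0.14 on the log2(FPKM + 1) scale. All members also share the same untreated libraries. Without untreated 0.5 h replicate 1 their median MeJA difference at 0.5 h went from 0.13 to 0.03, and the unadjusted counts were not made without that library. For 93 members at 0.5 h and 94 at 1 h, the 95% confidence interval of the MeJA difference stayed inside 2-fold up and 2-fold down. The 5 members that varied most between replicates, with SEs of 1.59 to 2.18, were not among them. This count was not made over all genes.

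At 0.5 h the members' median MeJA difference was 0.13 on the log2 scale, with 71 of 100 above 0, while the median over all genes tested was -0.03 and 42.9% of them were above 0. Levels of 43 members were higher in both MeJA libraries than in both untreated ones, and those of 9 were lower, against 13.8% and 22.6% of all genes. At 1 h the members' median was -0.03 against 0.01 over all genes. There 14 members were higher and 28 were lower without overlap, against 20.3% and 15.7% of all genes. In share of the listed sum, 40 members were higher and 13 were lower at 0.5 h, against 11.3% and 25.3% of all genes. Divided by the median of the genes tested, 45 were higher and 6 were lower, against 17.4% and 18.2%. The counts at 0.5 h changed with quantile normalization, which holds the top of the distribution alike in all libraries. After quantile normalization 16 members were higher and 16 were lower, close to the 16.4% and 18.9% of all genes under that scaling, and the median at 0.5 h was 0.04. The median was also 0.03 without untreated 0.5 h replicate 1, and the counts without overlap were not made with that library left out.

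In share of signal, the 95 members that varied little between replicates held 14.9% ± 0.796 in untreated and 16.2% ± 0.384 in MeJA-treated cuttings at 0.5 h (SD, n = 2). At 1 h they held 16.7% ± 0.119 untreated and 16.4% ± 0.0764 with MeJA. For these 95, chosen after values were seen, the treatments did not overlap at either time, with MeJA higher at 0.5 h and lower at 1 h, and no test was made of this sum. Over all 100 members MeJA was higher at both times. At 1 h the full list held 17.4% ± 1.33 with MeJA and 17.1% ± 0.250 untreated (SD, n = 2), and the treatments overlapped. Its MeJA difference at 1 h was 0.262 points, and -0.681 points without MeJA 1 h replicate 2. The MeJA difference of the 95 at 0.5 h was 1.24 points, and 0.681 points without untreated 0.5 h replicate 1.

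The member with the smallest p at 0.5 h was Potri.004G051500. It stood at 576 and 361 FPKM untreated and 932 and 881 FPKM with MeJA at 0.5 h, and at 913 and 965 FPKM untreated and 783 and 735 FPKM with MeJA at 1 h. MeJA libraries were higher at 0.5 h and lower at 1 h, without overlap at either time. The log2 difference at 0.5 h was 0.99 ± 0.19 (SE, limma adjusted p = 0.296), and the interaction was -1.30 ± 0.26 (SE, limma adjusted p = 0.219), so neither was called. Without untreated 0.5 h replicate 1 both were, at 1.33 (limma adjusted p = 0.0275) and -1.63 (limma adjusted p = 0.0404). Without untreated 0.5 h replicate 2 neither was, at 0.65 (limma adjusted p = 0.213) and -0.96 (limma adjusted p = 0.291), and over all libraries left out in turn the adjusted p ran from 0.0275 to 0.63 at 0.5 h and from 0.0404 to 0.535 for the interaction.

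Potri.009G030800, the most abundant gene, had a MeJA difference of 0.48 ± 0.14 at 0.5 h (SE, limma adjusted p = 0.477), with both MeJA libraries above both untreated ones. After quantile normalization the difference was 0, since that scaling gives the gene in first place the same value in every library. On the lower side was Potri.006G008500, at 1014 and 975 FPKM untreated and 815 and 679 FPKM with MeJA at 0.5 h, and at 719 and 757 FPKM untreated and 730 and 738 FPKM with MeJA at 1 h. Its untreated libraries of 0.5 h stood above all others. The log2 difference there was -0.42 ± 0.12 (SE, limma adjusted p = 0.477).

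At 1 h the smallest p belonged to Potri.002G222700, at 348 and 297 FPKM untreated and 403 and 419 FPKM with MeJA at 0.5 h, and at 944 and 1033 FPKM untreated and 821 and 831 FPKM with MeJA at 1 h. Its MeJA libraries were the higher ones at 0.5 h and the lower ones at 1 h, with a difference of -0.26 ± 0.12 at 1 h (SE, limma adjusted p = 0.846). The neighbours Potri.009G114800 and Potri.009G114700 stood higher with MeJA at 1 h, by 0.26 ± 0.14 and 0.23 ± 0.13 (SE, limma adjusted p = 0.885 for both). Without MeJA 1 h replicate 1, the difference of Potri.009G114800 was 0.17. Over both times, Potri.001G239700 and Potri.010G236500 stood 0.18 ± 0.11 and 0.21 ± 0.13 higher with MeJA and Potri.006G008500 stood at -0.21 ± 0.11 (SE, limma adjusted p = 1 for each). Each of these values moved by over 1.5 times when 1 library was left out. Without MeJA 0.5 h replicate 2, Potri.001G239700 stood at 0.10 and Potri.006G008500 at -0.12, and without untreated 0.5 h replicate 1, Potri.001G239700 and Potri.010G236500 stood at 0.10 each. Potri.010G236500 stood at 0.32 without untreated 0.5 h replicate 2. After quantile normalization Potri.001G239700 and Potri.010G236500 stood at 0.05 and 0.11.

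The members share few positions. They lie on all 17 chromosomes listed, with 12 each on chromosomes 1 and 10 and 1 each on chromosomes 12 and 15, which is 0.102% to 0.678% of the genes tested on a chromosome. Besides Potri.009G114700 and Potri.009G114800, the adjacent identifiers Potri.007G026100 and Potri.007G026200 were both members, at mean levels of 525 and 584 FPKM at 0.5 h and 466 and 556 FPKM at 1 h. Genes with near-identical copies could share reads, and the way such reads were counted is not given in the sources used here.

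A single transcript was listed for 42 members, and for 51.1% of all genes tested. Of the 33 gaining members 5 had 1 transcript, of the 17 losing members 9, and of the 50 that overlapped 28. Among the 58 members with several transcripts, the leading one kept first place in all 8 libraries for 51. Its median share of the gene's level was 53.2%. For 24 members the leading transcript supplied under 50% of the gene's level.

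The transcripts of a gene can shift among themselves while their sum, which chose the members, does not show it. The share of each transcript in its gene was therefore tested for 171 transcripts of 58 members, as log2 odds in limma, within a fit over 24868 transcripts of 7694 genes. Between 0.5 h and 1 h, 3 member transcripts of 2 genes differed at an adjusted p under 0.05, against 0.105% of all transcripts. Between MeJA and untreated cuttings 0 differed, with 0.0% of all transcripts. At an unadjusted limma p under 0.05, 0 member transcripts differed with MeJA, where 5.06% of all transcripts did.

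Potri.001G418500, which gained share, has 13 transcripts listed. Transcript 13 made up 20.1% and 19.1% of the gene in untreated cuttings and 18.9% and 18.7% with MeJA at 0.5 h, and 4.56% and 4.36% untreated and 4.45% and 4.24% with MeJA at 1 h. The times lay far apart and the treatments close together, with a change of -2.36 in log2 odds (limma adjusted p = 2.38e-07). Its own level fell from 288 ± 16.6 to 123 ± 6.06 FPKM (SD, n = 4) while the gene rose from 1496 ± 50 to 2804 ± 157 FPKM. The other 12 transcripts were all higher at 1 h. Transcript 1 went from 41.1 ± 3.10 to 386 ± 23.5 FPKM, a 9.40-fold rise, and from 2.74% to 13.8% of the gene, while the other 11 rose 1.85-fold to 2.08-fold. Transcript 1 fell below the 10% mean share set for testing and was chosen after its values were seen. With that limit at 5% its limma adjusted p was 9.56e-07.

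The second gene was Potri.016G005300, with 3 transcripts, at 418 ± 46.8 FPKM at 0.5 h and 606 ± 31.4 FPKM at 1 h (SD, n = 4). Transcript 2 made up 33.2% and 32.4% of it untreated and 29.1% and 31.2% with MeJA at 0.5 h, and 21.8% and 20.4% untreated and 20.7% and 19.8% with MeJA at 1 h (limma adjusted p = 0.002). Transcript 1 went the other way, from 46.4% ± 1.56 to 57.2% ± 1.28 (SD, n = 4; limma adjusted p = 0.00678). The level of transcript 2 itself overlapped between the times, at 131 ± 7.19 and 125 ± 10.9 FPKM, while transcript 1 rose from 195 ± 28.5 to 347 ± 13.3 FPKM.

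With mean shares of 5% to 95% tested in place of 10% to 90%, 6 member transcripts differed between the times, against 0.266% of all transcripts. The additional gene was Potri.011G134200. Transcript 11 of that gene supplied 5.96% ± 0.156 of its level at 0.5 h and 10.5% ± 0.184 at 1 h (SD, n = 4), with a limma adjusted p of 0.000578. Transcript 1 supplied 7.69% ± 0.0537 and 5.45% ± 0.0923 (SD, n = 4), with a limma adjusted p of 0.013. The times did not overlap for either transcript.

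**Figure D5:**
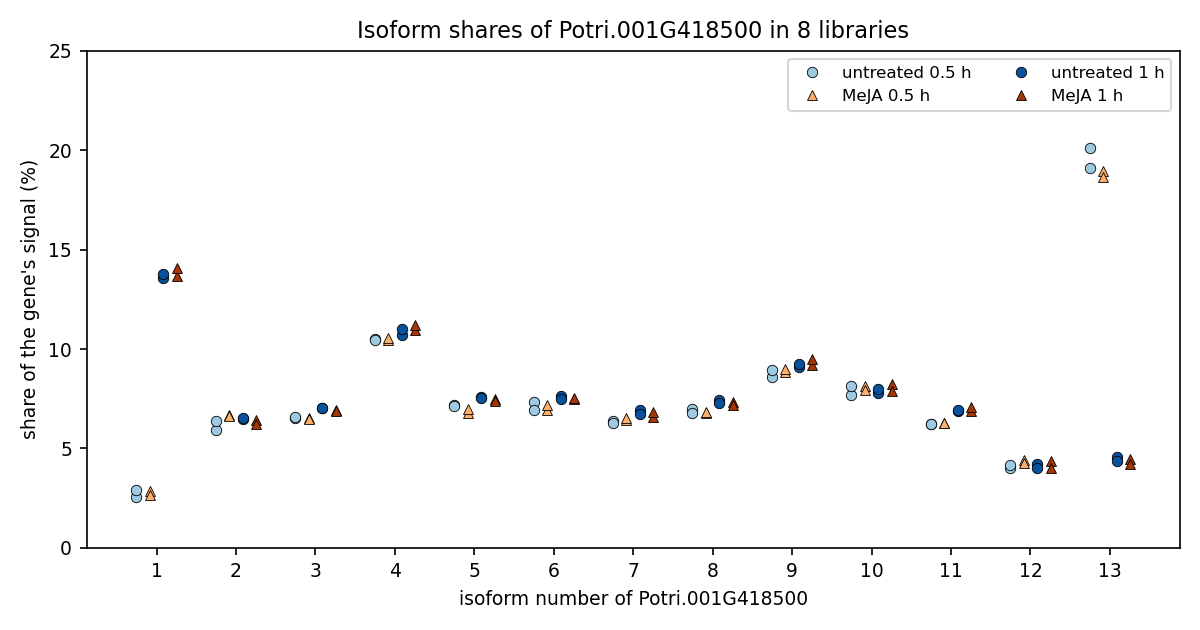
Share of the gene's level, in percent, of each of the 13 transcripts (isoforms) of Potri.001G418500, with 1 point per library, coloured by group. Isoform 13 lies at 18.7% to 20.1% in the libraries of 0.5 h and at 4.24% to 4.56% in those of 1 h, and isoform 1 moves the opposite way, while the points of the other 11 lie close together.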

How the data were processed

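RNA-seq of 8 libraries in 4 groups of 2 was used, grouped by the submitters' labels. The authors deposited 1 table per library with 1 value per transcript, taken to be FPKM from the values alone, since neither the labels nor a header names the unit. HISAT2 2.1.0 and Bowtie2 2.2.3 are named per the submitters' processing notes. What each did, the quantification, the genome build, the annotation and any use of strand were not given in the sources used here. Absolute depth is unknown, and no counting interval is printed. Relative depth came from the steps between low values of single-transcript genes.

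Transcripts were summed to genes. Values were transformed as log2(FPKM + 1), which understates the change of low genes, and genes reaching 1 FPKM in 2 or more libraries entered the tests. The limma 3.58.1 fit (R 4.3.3, variance trend, robust moderation) had a mean for each of the 4 groups, and a second fit with additive terms served the MeJA contrast over both times. Benjamini-Hochberg adjustment covered all genes of a contrast. A count test planned for read counts was replaced by limma, planned for normalized values. Transcript shares were tested as log2 odds for genes of at least 5 FPKM in every library and mean shares of 10% to 90%, with 0.5 FPKM added. Shares, counts and figures were made in Python 3.11.15 with pandas 2.3.3 and matplotlib 3.10.9. The fits were tested on simulated data.

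The members and lists were chosen with earlier results of these data known. Named are the 10 most abundant members and at most 2 members per direction for gain or loss of share in points or ratio and for each MeJA contrast, as well as genes at either side of the limit of 100, genes left out for their time difference, members with called transcripts and members at adjacent identifiers. The 5 members variable between replicates, Potri.003G165000 and transcript 1 of Potri.001G418500 were added after their values were seen. Planned lists by gene function and a check of tissue markers were not run, because no names of the identifiers were used here. Same-numbered replicates did not deviate together (correlations of -0.116 to 0.0328 between groups), so the numbers were not taken to pair libraries. Alternatives were other scalings, filters, pseudocounts and rules for choosing members, a replicate block and leaving out 1 library at a time.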

Additional observations from a re-analysis of the deposited data

Results flagged for a closer look

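Some members stood higher with MeJA at 0.5 h and lower with MeJA at 1 h, with no overlap between the 2 treated and 2 untreated libraries at either time. This held for 20 members, and 0 showed the reverse order. Of all genes tested, 3.20% showed the same order and 9.40% showed either order. Among the members named by rule, the log2 MeJA difference at 0.5 h exceeded that at 1 h by 1.30 in Potri.004G051500 and by 0.61 in Potri.002G222700. The excess was 0.55 in Potri.001G400100, 0.50 in Potri.011G118900, 0.44 in Potri.001G239700, 0.40 in Potri.008G054700 and 0.34 in Potri.016G005300. Most of the excess in these genes came from 0.5 h. At 1 h alone their MeJA differences were small, at -0.11, -0.06, -0.04, -0.10 and -0.09 in the same order. The lack of overlap at 1 h could rest on a narrow margin, as with 1864 and 1867 FPKM in Potri.001G239700. The difference between times was tested by the interaction term of the limma fit over all genes, and 0 members passed an adjusted p of 0.05. At an unadjusted limma p under 0.05 there were 19, against 9.32% of all genes. The interaction was below 0 in 18 of them and above 0 in 1, against 840 and 1428 of all 24347 genes. Untreated 0.5 h replicate 1 had the lowest members' share of any library, and without it the median interaction over the members went from -0.16 to -0.04.

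The summed shares moved likewise. The 95 members that varied little between replicates held 1.24 percentage points more with MeJA at 0.5 h and 0.313 points less at 1 h, a difference of 1.56 points. The difference at 0.5 h was 0.681 points without untreated 0.5 h replicate 1. Over all 100 members MeJA was higher at both times, by 1.48 points at 0.5 h and 0.262 points at 1 h. The opposite order was thus not seen in the full list with all libraries. The difference of the full list at 1 h was -0.681 points without MeJA 1 h replicate 2 and 1.21 points without MeJA 1 h replicate 1. For the 10 most abundant genes the MeJA difference was 0.808 points at 0.5 h and -0.0920 points at 1 h, a difference of 0.900 points. Without MeJA 0.5 h replicate 2 the difference at 0.5 h was 0.451 points. These differences between times were not tested.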

How the results depend on the processing

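The relative change of the members' share from 0.5 h to 1 h, 8.27%, became -0.384% after quantile normalization, -0.057% with members chosen by their mean at 0.5 h and 15.3% with members chosen by their mean at 1 h. Quantile normalization leaves little room for this sum to change, and choosing members at 1 time favours genes high at that time. The relative change ran from 5.08% to 10.3% with 1 library left out and was 6.12% without the 5 variable members. The count of gaining members, 33, was 20 with members chosen at 0.5 h, 14 of 50 genes and 74 of 200 genes, and 33 to 35 with 1 library left out. The count of losing members, 17, was 37 after quantile normalization, 11 of 50 genes and 37 of 200 genes, and 17 to 24 with 1 library left out. With members chosen otherwise, the background stayed at 18.2% gaining and 36.1% losing of all genes tested. It is not given for quantile normalization or with 1 library left out. After quantile normalization, 16 members were higher and 16 lower with MeJA at 0.5 h, and 7 were higher and 24 lower at 1 h. The shares of all genes there were 16.4% and 18.9% at 0.5 h and 16.9% and 19.3% at 1 h. In share of the listed sum, 40 members were higher and 13 lower at 0.5 h, and 13 and 33 at 1 h. The shares of all genes were then 11.3% and 25.3% at 0.5 h, and 19.0% and 16.6% at 1 h. Divided by the median of the genes tested, the counts were 45 and 6 at 0.5 h, and 11 and 41 at 1 h. All genes then stood at 17.4% and 18.2%, and at 15.5% and 21.9%. The cause of the changes in these counts with quantile normalization was not tested. Without untreated 0.5 h replicate 1, 1 member was called for MeJA at 0.5 h and 1 for the interaction, and across the libraries left out these counts were 0 to 1. For MeJA at 1 h and over both times they were 0 to 0. Member transcripts whose share differed between times numbered 3, 6 with mean shares of 5% to 95% (0.266% of all transcripts then, including 2 transcripts of Potri.011G134200), and 2 to 3 with 1 library left out. For MeJA they were 0 to 0. With a replicate block, and with crossed numbers, 0 members were called in any MeJA contrast. With no filter on low values 0 members were called as well. Of the 36385 genes then tested, 35 were called at 0.5 h, 19 at 1 h, 36 for the interaction and 4 over both times. For the named members, 184 of 187 tries had the direction and the call first reported, 2 became calls, 1 was at 0 with no direction (Potri.009G030800 at 0.5 h after quantile normalization) and 0 changed direction. A test with size factors needs counts and was not run. Absolute depth is unknown, and 2 libraries per group limit what could be called.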

Other observations

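Other genes kept step with Potri.013G139900, the most abundant of the set of 3 members on chromosomes 13 and 11 that differed between replicates. Over the 8 libraries, 11 genes followed it on the log2(FPKM + 1) scale with a Pearson correlation over 0.95, given here as a description of libraries that share their source. They were 2 members and 9 genes with mean levels of 4.19 to 246 FPKM. By identifier, 6 of the 11, with the 2 members among them, lay on the same stretches of chromosomes 13 and 11, and 5 lay elsewhere. The ends of these stretches are themselves among the 11 genes. Other genes on the stretches were not counted, so nothing is read from this count. Potri.005G133100 was followed in this way by 2 genes, 1 of them a member.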
